A study of Mus musculus with 20 samples.

Results

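Of 22165 genes counted in activated mouse macrophages, 47 were induced late but not early in control cells. They were chosen from the control libraries alone, on read counts scaled to the library total (CPM) averaged over 2 libraries. A gene had to reach at least 40 CPM at 6 h after the stimulus and at least 6 times its level at 0 h, with 0 h levels under 0.5 CPM set to 0.5, and its level at 1 h could be at most 1.5 times that at 0 h. Symbols starting with Ifi, Ifit, Gbp, Oas, Irf, Irg, Il, Cxcl or Ccl were left out, which removed 2 genes that met the other criteria, Il15ra and Ccl5. The rise between 0 and 6 h in controls is therefore the choice of the genes and not a result.

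The cells were wild-type C57BL/6 bone marrow-derived macrophages, grown for 7 days with the macrophage growth factor M-CSF. Control (Ctrl) cells and cells given 250 µM dimethyl itaconate (DI) over the 12 h before the stimulus received LPS and IFNg together, and both arms were sampled at 0, 1, 2, 4 and 6 h, with 2 libraries in each of the 10 groups. LPS is a bacterial cell wall component and IFNg a cytokine of T and NK cells. DI is a membrane-permeable ester of itaconate, and the title of the study concerns its effect on a secondary wave of NF-kB signalling.

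Macrophages answer LPS in waves. Primary response genes need no protein synthesis and rise within the first hour, whereas secondary genes wait for proteins made in the first wave, among them autocrine interferon and cytokines, newly made transcription factors such as IkBz, or for chromatin to be opened. Length adds to the delay, because a polymerase needs more time to cross a long gene before its 3' end appears in RNA. DI is an electrophile that reacts with thiols and is known to activate NRF2.

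Near the thresholds, Fzd1 was just inside at 40.7 CPM at 6 h and Adprm just outside at 39.2 CPM. Sco1 was inside with a 6.18-fold rise at 6 h and Gca outside with 5.96-fold. At 1 h Lrrc8c was inside at 1.48-fold and F830016B08Rik outside at 1.52-fold. Applied to replicate 1 alone the criteria held for 39 of the 47 genes, to replicate 2 alone for 33, and to both for 25.

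All levels from here on are CPM adjusted by TMM factors (trimmed mean of M values), which allow for shifts in the makeup of the libraries. The TMM factors of the Ctrl libraries were 1.40 and 1.38 at 0 h, 1.14 and 1.11 at 1 h, and 0.765 and 0.808 at 6 h. On this scale 12 of the 47 genes were more than 1.5 times higher at 1 h than at 0 h in Ctrl, up to 1.83-fold for Lrrc8c, so "not induced at 1 h" depends on the scaling for those. The 6 h level was 10.9 times (Sco1) to 149 times (Clic5) that at 0 h, with a median of 18.5 times.

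The upstream sequences of 5 members show the range of promoters among them: Saa3, Cp and Ebi3 were lower in DI at 4 h, and Clic5 and Fam102b rose in DI as in Ctrl. This choice was made after their values were seen. The sequences are from RefSeq (GRCm38.p6), 5′ to 3′ in the direction of the gene. They cover 250 bases before the start site, or 226 for Saa3, where bases inside the annotated gene were left out. Capitals mark every match, on either strand, to an interferon-stimulated response element core (GAAA, 2 bases of any kind, GAAA), a gamma-activated site (TTCNNNGAA), a loose kB site (GGG, 5 bases of any kind, CC), an AP-1 site (TGANTCA) or a C/EBP site (TTGCNNAA).
Saa3 (chr7:46715701-46715926, minus strand): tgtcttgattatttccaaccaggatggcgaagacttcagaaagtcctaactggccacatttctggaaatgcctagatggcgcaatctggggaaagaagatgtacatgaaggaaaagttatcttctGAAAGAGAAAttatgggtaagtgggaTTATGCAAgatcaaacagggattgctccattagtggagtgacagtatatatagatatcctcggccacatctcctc
Cp (chr3:19956804-19957053, plus strand): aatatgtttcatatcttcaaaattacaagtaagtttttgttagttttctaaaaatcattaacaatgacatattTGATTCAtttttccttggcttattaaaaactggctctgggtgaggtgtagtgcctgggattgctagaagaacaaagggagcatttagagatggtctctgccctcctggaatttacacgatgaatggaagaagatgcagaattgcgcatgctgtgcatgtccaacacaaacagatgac
Ebi3 (chr17:55952373-55952622, plus strand): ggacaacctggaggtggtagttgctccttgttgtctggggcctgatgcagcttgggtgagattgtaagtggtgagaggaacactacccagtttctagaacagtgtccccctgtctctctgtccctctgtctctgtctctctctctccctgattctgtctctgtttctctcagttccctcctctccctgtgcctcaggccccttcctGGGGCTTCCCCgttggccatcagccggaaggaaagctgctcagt
Clic5 (chr17:44188322-44188571, plus strand): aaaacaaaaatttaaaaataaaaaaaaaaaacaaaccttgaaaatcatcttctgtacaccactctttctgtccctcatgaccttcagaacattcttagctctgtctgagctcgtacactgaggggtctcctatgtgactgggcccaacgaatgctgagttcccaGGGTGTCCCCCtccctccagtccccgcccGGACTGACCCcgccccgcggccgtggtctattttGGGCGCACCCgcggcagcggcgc
Fam102b (chr3:109027608-109027857, minus strand): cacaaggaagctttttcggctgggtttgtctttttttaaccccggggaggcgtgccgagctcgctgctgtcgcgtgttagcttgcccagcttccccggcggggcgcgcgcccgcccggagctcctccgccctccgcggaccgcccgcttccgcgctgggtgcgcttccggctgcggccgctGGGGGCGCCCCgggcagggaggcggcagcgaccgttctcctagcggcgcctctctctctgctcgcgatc

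Positions are counted from the RefSeq start site, which for Saa3 lies beyond the end of the printed sequence. The first RefSeq window of each gene is shown. The Saa3 window held an interferon-response core 125 bases before the start site and a C/EBP match 99 bases before it. The Cp window shown held an AP-1 match 177 bases upstream. Cp has more than 1 window, and kB and C/EBP matches lay outside the 1 shown. In Ebi3 2 overlapping kB matches lay 44 and 43 bases upstream. Clic5 had 4 kB matches, 2 of them overlapping, and Fam102b had 2 overlapping ones. The letters are a description and no evidence of binding.

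Among the members some of these patterns were about as frequent as in all promoters and others less so. RefSeq windows were found for 39 of the 47 genes, with 50 windows in all because some genes have several start sites. The loose kB pattern was in 24 of 50 windows (48.0%), against 45.8% of all 32851 windows, the C/EBP pattern in 6 (12.0% against 9.6%), the AP-1 pattern in 2 (4.0% against 6.7%) and the interferon-response core in 1 (2.0% against 3.0%). The gamma-activated site was in 0 of 50 windows, against 7.0% of all windows and 10 of 70 windows of 63 genes that were already at least 6-fold higher at 1 h. A TATA box (TATAAA) was in 4 windows (8.0% against 12.4%), a hypoxia-response core (ACGTG) in 9 (18.0% against 16.6%) and an antioxidant-response core (TGANNNNGC) in 19 (38.0% against 35.2%). That last pattern can overlap the AP-1 pattern. Of the 23 windows of genes that were lower in DI at 4 h, 9 held a kB match, as did 15 of the 27 windows of the others. The antioxidant-response core was in 13 of these 23 windows and in 6 of the 27 others. For the other patterns the split was 3 and 3 for C/EBP, 3 and 6 for the hypoxia-response core and 2 and 2 for the TATA box. It was 2 and 0 for AP-1, 1 and 0 for the interferon-response core and 0 and 0 for the gamma-activated site. These splits were made with the calls known, and genes with several windows count more than once. They are a description, and no test was made.

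The libraries held 3655977 to 8938983 reads in Ctrl and 3982073 to 6725447 in DI. Reads covered fewer genes with DI: 11143 to 12356 genes had no read in DI libraries and 9301 to 10859 in Ctrl, and the estimated reads per molecule were 3.58 to 10.2 and 1.82 to 3.31. Every member had reads in every Ctrl library, and up to 3 were at 0 in a DI library. The coefficient of variation between the 2 libraries, as the median over members, was 8.15 to 17.3% in the Ctrl groups and 20.6 to 33.2% in the DI groups. All 12 macrophage markers were present in both arms, with a summed level of 5860 to 9600 CPM in Ctrl and 3740 to 7530 CPM in DI. T and NK cell, B cell, mast cell and erythroid markers summed to at most 15.4 CPM. Of 8 neutrophil markers 7 reached a mean of 1 CPM in Ctrl and 4 in DI (sums of 255 to 643 and 280 to 538 CPM), of 7 dendritic cell markers 4 and 3 (15.3 to 45.8 and 7.24 to 30.3 CPM, with Cd209a at 0), and of 5 fibroblast markers 4 and 4 (38.5 to 68.7 and 5.30 to 39.7 CPM). Their part in the results was not tested. In bulk RNA fewer expressing cells and less RNA per cell cannot be told apart. The labels do not say whether the 2 libraries of a group are separate animals, so p-values measure only the spread between these libraries.

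Together the 47 genes took 0.169 and 0.168% of all reads in the Ctrl libraries at 0 h, 0.416 and 0.446% by 2 h, 1.15 and 1.13% by 4 h, and 1.66 and 1.67% by 6 h. In DI they took 0.0805 and 0.101% at 0 h, 0.210 and 0.190% by 2 h, 0.508 and 0.553% by 4 h, and 0.570 and 0.656% by 6 h. The DI libraries were below the Ctrl libraries at every time. A single gene, the cyclin gene Ccnd2, carried a large part of the Ctrl total: without it the share was 1.22 and 1.25% in Ctrl and 0.543 and 0.617% in DI at 6 h.

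**Figure D1:**
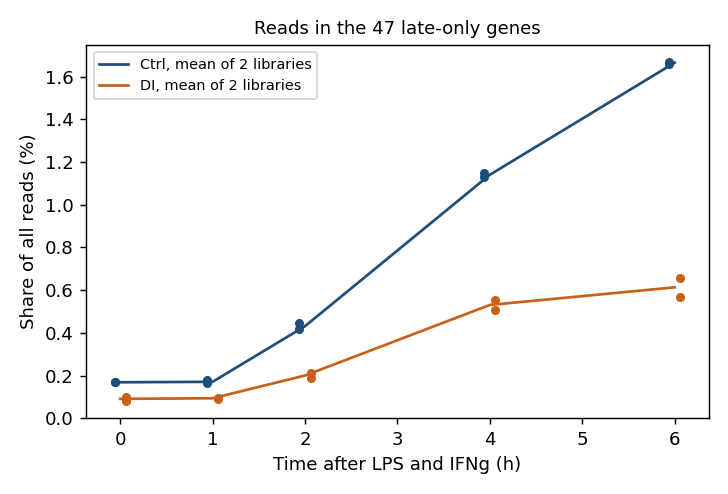
Share of all reads (%) that fell in the 47 late-only genes against time after LPS and IFNg (h), with 1 point per library and lines through the means of 2 libraries. Ctrl libraries went from 0.169 and 0.168% at 0 h to 1.66 and 1.67% at 6 h, and DI libraries from 0.0805 and 0.101% to 0.570 and 0.656%; the Ctrl libraries at 0, 1 and 6 h chose the genes.

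The libraries at 2 and 4 h played no part in the choice and show when the genes moved. The rule did force a rise between 1 and 6 h in Ctrl. A step up between 2 and 4 h was therefore favoured in advance, and the shares of all genes do not allow for that. In Ctrl 32 of the 47 were higher at 4 h than at 2 h by edgeR's quasi-likelihood test at an adjusted p under 0.05, and 0 were lower, against 3.09% of 10663 genes tested that were higher and 2.41% that were lower. All 47 passed the filter on low counts, which their 6 h level made certain. The median difference was 1.67 on the log2 scale, against 0.02 over all genes. As a share of its own 6 h level, the median member stood at 19.3% at 2 h and 65.5% at 4 h in Ctrl. At 4 h 35 of 47 had passed 50% of their 6 h level, with Saa3 the latest at 18.4% and Ppm1k already at 124%. Each Ctrl library at 2 and 4 h bore on the count of 32: it was 15 and 17 without replicate 1 or 2 at 2 h, and 20 and 18 without replicate 1 or 2 at 4 h.

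The steepest steps between 2 and 4 h were in 2 transport genes. Clic5, of the chloride intracellular channel family, stood at 8.12 and 5.80 CPM at 2 h in Ctrl and at 174 and 180 CPM at 4 h, a log2 difference of 4.69 ± 0.56 (standard error; adjusted p = 1.19e-05). Slco3a1, an organic anion transporter, went from 78.0 and 70.3 CPM to 731 and 746 CPM (3.32 ± 0.30, adjusted p = 4.78e-07). Tnfsf10, which encodes the death ligand TRAIL, went from 38.6 and 36.0 to 297 and 254 CPM (2.88 ± 0.38, adjusted p = 3.55e-05). In each of the 3 the 2 h and 4 h libraries lay far apart.

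DI lowered 24 of the 47 genes at 4 h and raised none. By the same test these 24 were lower in DI than in Ctrl and 0 were higher, against 6.00% of all genes tested that were lower and 3.43% that were higher. Members had to be high in Ctrl at 6 h, so genes that became high only with DI could not be among them. The choice thus favoured lower over higher calls, and the shares of all genes do not allow for that. The median difference was −1.15 (log2) for the members and −0.06 for all genes, and 44 of 47 lay below 0. In 41 of 47 both DI libraries lay below both Ctrl libraries, which held for 31.1% of all genes, and in 1, Clic5, both lay above, which held for 22.3%. At 2 h 16 members were lower and 0 higher, against 3.97% and 2.27% of all genes, with a median of −1.06. Both DI libraries lay below both Ctrl libraries in 32 members at 2 h, beside 28.3% of all genes.

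These shares were not far from those of genes induced earlier. Of the 63 genes that were at least 6-fold higher in Ctrl at both 1 and 6 h, 33 were lower in DI at 4 h (median −1.01), and of 84 genes between these and the late-only genes 43 were lower and 1 higher (median −1.03). Being late was thus not matched by a larger share of lowered genes at 4 h; no test of the difference between the sets was made.

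The 24 lower genes were not equally firm. Batf, Ccnd2, Cp, Ebi3, Gpr31b, Gramd1a, Itgal, Mmp14, Ppm1k, Saa3 and Stard7, 11 in all, were called under each of 15 alternative settings. The other 13 lost the call under at least 1 setting. Without replicate 2 of DI at 4 h, 14 members were lower: Fpr1, Psat1, Cd38, Glipr2, Gphn, Jak2, Gpd2, Hivep2, Slco3a1, Zdhhc2 and AA467197 lost their calls and 1 member was called that had not been. Fpr1, Gpd2, Hivep2, Slco3a1 and Zdhhc2 lost theirs without any 1 of the 4 libraries, Cd38 also without replicate 2 of Ctrl, and Gphn and Jak2 also without replicate 1 of Ctrl. Tnfsf10 lost its call without replicate 1 of DI at 4 h, and Cd200 did so without that library or without replicate 1 of Ctrl. At 2 h the 16 became 9 without replicate 2 of Ctrl and 9 without replicate 2 of DI.

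Part of the difference at 4 h was present before the stimulus. Of the 24 genes lower at 4 h, 12 had a log2 difference under −1 at 0 h. In 3 of them, Glipr2, Tnfsf10 and Slco3a1, the difference at 0 h was at least as large as at 4 h, and 6, Ebi3, Gphn, Gpd2, Itgal, Gramd1a and Cd200, were above 0 at 0 h. The Ctrl libraries at 0 h helped to choose the genes, so these values carry no test.

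**Figure D2:**
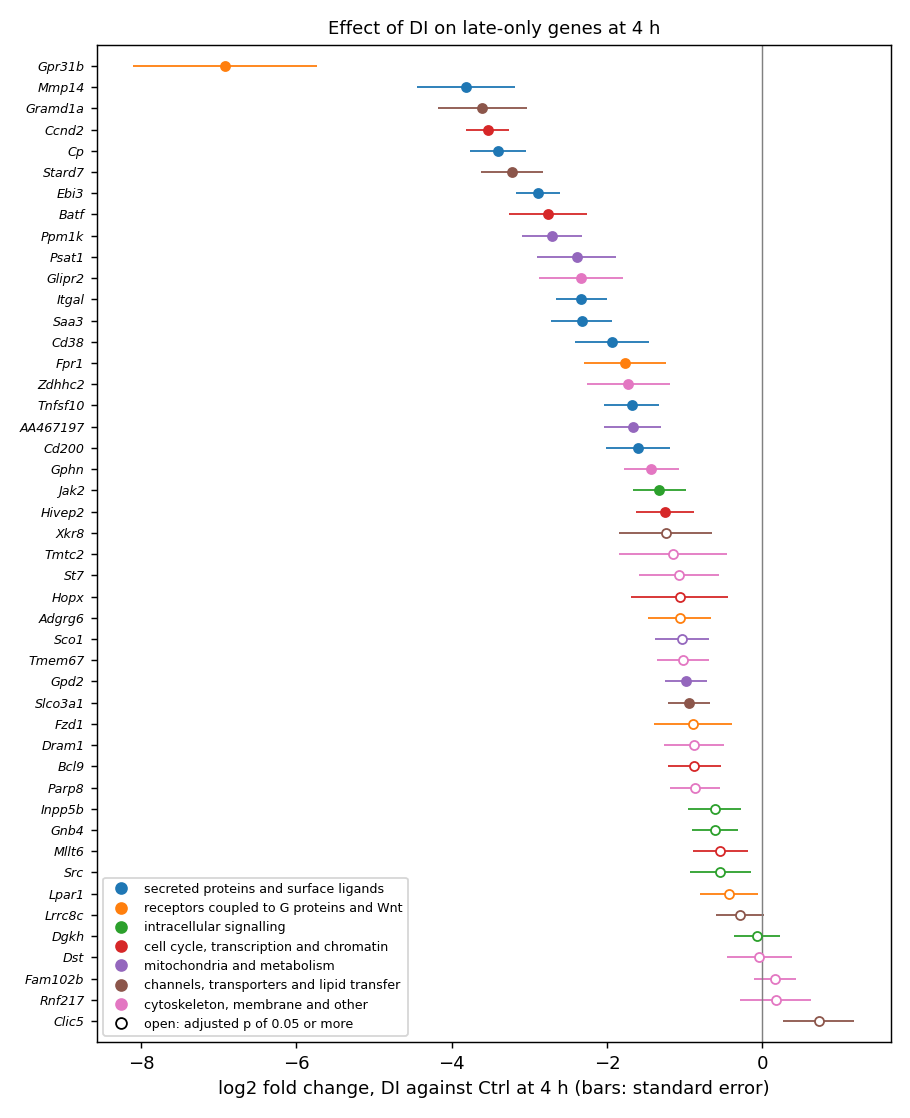
Log2 fold change of DI against Ctrl at 4 h (x axis) for the late-only genes (y axis, 1 member not shown), with bars of 1 standard error, colours by role and open points for an adjusted p of 0.05 or more. The 24 filled points all lie below 0, from −6.91 (Gpr31b, which rests on 1 read in DI) to −0.94 (Slco3a1), and the 3 points above 0, Clic5, Rnf217 and Fam102b, are open.

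The members were sorted into 7 groups by role after their names were seen. The group of secreted and other surface proteins held Cp, Ebi3, Saa3, Mmp14, Itgal, Tnfsf10, Cd200 and Cd38. All 8 were lower in DI at 4 h, with a median of −2.33 (log2). Surface receptors coupled to G proteins and Wnt were sorted into a group of their own, so the 8 of 8 depends on the sorting. The counts were 4 of 5 for mitochondria and metabolism (−1.67), 3 of 6 for cell cycle, transcription and chromatin (−1.16), 3 of 6 for channels, transporters and lipid transfer (−1.09), 2 of 5 for receptors coupled to G proteins and Wnt (−1.06), 3 of 12 for cytoskeleton, membrane and other genes (−0.95), and 1 of 5 for intracellular signalling (−0.61). No group had a member that was higher.

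Among the secreted proteins, Ebi3 was at like levels in both arms before the stimulus and then rose far less in DI. Ebi3 encodes the subunit shared by the cytokines IL-27 and IL-35. Its level in Ctrl was 21.8 and 19.9 CPM at 0 h, 63.9 and 75.7 at 2 h, 227 and 237 at 4 h, and 337 and 409 at 6 h. In DI it was 20 and 22.9 CPM at 0 h, 18.4 and 26.6 at 2 h, 31.9 and 30.7 at 4 h, and 42.5 and 38.8 at 6 h. The arms overlapped at 0 h and at no later time. The difference was −1.64 ± 0.28 (log2; adjusted p = 5.13e-04) at 2 h and −2.89 ± 0.29 (adjusted p = 2.77e-07) at 4 h.

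Saa3, an acute-phase serum amyloid A protein made by macrophages, had the same shape with a later rise. Its Ctrl levels were 34.7 and 41.5 CPM at 0 h, 131 and 158 at 4 h, and 739 and 829 at 6 h. The DI levels were 34.6 and 26.6 CPM at 0 h, 31.9 and 25.7 at 4 h, and 64.1 and 33.7 at 6 h, so DI stayed near its own starting level. At 4 h the difference was −2.32 ± 0.39 (log2; adjusted p = 2.86e-04), and the change from 0 to 6 h in DI was 0.68 ± 0.38 (adjusted p = 0.22).

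Cp encodes ceruloplasmin, a copper protein that oxidises iron. It stood at 447 and 577 CPM in Ctrl and 44.6 and 52.2 CPM in DI at 4 h (log2 difference −3.40 ± 0.37, adjusted p = 7.78e-07), and at 1270 and 913 against 36.4 and 46.1 CPM at 6 h. DI was already lower at 0 h, at 21.9 and 7.95 against 41.5 and 40.2 CPM. Cp overlaps Hps3 on the opposite strand, whose own level in Ctrl did not follow it (39.2 CPM of the library at 0 h and 25.6 at 6 h). Whether the counting used strand is not given in the sources used here, so for overlapping genes on opposite strands the reads may not be separated.

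Mmp14, the membrane-bound matrix metalloproteinase, showed the largest fall among genes with more than a few reads. At 4 h it stood at 349 and 401 CPM in Ctrl and 27.1 and 26.2 CPM in DI, a log2 difference of −3.81 ± 0.63 (adjusted p = 2.07e-04). Mmp14 was already lower in DI at 0 h (−1.79, not tested) and at 2 h (−3.89 ± 0.67). At 6 h it stood at 873 and 990 against 52.0 and 14.1 CPM, and the DI libraries then differed widely from each other.

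Itgal, the alpha chain of the integrin LFA-1, lay at 47.7 and 33.7 CPM in DI at 0 h and at 59.8 and 60.3 CPM at 6 h, a change that did not pass the test (0.56 ± 0.32 on the log2 scale, adjusted p = 0.23). In Ctrl it went from 30.8 and 37.6 to 450 and 321 CPM. Its difference between the arms was −1.36 ± 0.33 at 2 h (adjusted p = 0.0111, lost without replicate 2 of Ctrl or either DI library) and −2.33 ± 0.33 at 4 h (adjusted p = 3.51e-05).

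Tnfsf10 rose in DI from a lower start, with 2.83 and 1.61 CPM at 0 h against 12.6 and 6.65 CPM in Ctrl (log2 difference −2.16). It stood at 68.3 and 103 CPM in DI against 297 and 254 CPM in Ctrl at 4 h (−1.69 ± 0.36 on the log2 scale, adjusted p = 0.00284) and at 54.4 and 50.4 against 284 and 326 CPM at 6 h. The fall of Cd200, a ligand that restrains myeloid cells through its receptor, was −1.60 (14.4 and 28.1 against 69.1 and 59.5 CPM), and that of Cd38, an ectoenzyme that consumes NAD, was −1.94 (19.3 and 11.4 against 50 and 67.9 CPM). Cd200 was higher in DI at 0 h (0.59), while Cd38 was already lower there by about as much as at 4 h (−1.81).

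The receptors were mixed. Gpr31b, a G protein-coupled receptor gene of 1 exonic stretch, had 57 and 88 reads in the Ctrl libraries at 4 h and 1 and 0 reads in DI. The Ctrl to DI ratio was 142, with a 95% interval of 25.2 to 5660 that covers counting error only. Fpr1, the receptor for bacterial formyl peptides, was at 41.7 and 49.1 CPM in Ctrl and 9.75 and 17.0 CPM in DI at 4 h (−1.77 ± 0.53 on the log2 scale, adjusted p = 0.0331). That call was lost without any 1 of the 4 libraries, and the difference was −1.49 at 0 h already. Fpr1 lies within 5 kb of its paralog Fpr2, which rose in Ctrl from 72.7 to 848 CPM of the library, and reads shared between the 2 were not tested.

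Lpar1, a lysophosphatidic acid receptor, stood apart at the start: DI had 16.2 and 41.0 CPM at 0 h against 7.59 and 6.14 CPM in Ctrl. By 4 h it was at 144 and 120 against 164 and 191 CPM (−0.43 ± 0.37, adjusted p = 0.54). The adhesion receptor gene Adgrg6 (−1.06 ± 0.40, adjusted p = 0.10) and the Wnt receptor gene Fzd1 (−0.89 ± 0.50, adjusted p = 0.30) did not pass the test at 4 h.

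Signalling genes held the lowest share of calls. Jak2, the kinase of the IFNg receptor, was the member that fell, from 384 and 299 CPM in Ctrl to 150 and 121 CPM in DI at 4 h (−1.33 ± 0.34, adjusted p = 0.0138). The call was lost without replicate 1 of Ctrl or replicate 2 of DI. Dgkh, a diacylglycerol kinase, was at 152 and 129 CPM in Ctrl and 140 and 128 CPM in DI at 4 h (−0.07 ± 0.30, adjusted p = 0.93), then at 296 and 245 against 76.8 and 81.2 CPM at 6 h. Its arms overlapped at 4 h and lay apart at 6 h. The tyrosine kinase gene Src (−0.54 ± 0.39) and the G protein beta subunit gene Gnb4 (−0.61 ± 0.30) did not pass at 4 h, and Src stood at 68.6 and 76.1 CPM in DI against 60.4 and 59.2 in Ctrl at 6 h.

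Ccnd2 encodes cyclin D2, which drives entry into the cell cycle, and was the most abundant of the 47. Its DI level was 15.3% of the Ctrl level at 0 h already, 8.62% at 4 h and 6.63% at 6 h. The levels were 411 and 480 CPM in Ctrl against 58.1 and 78.1 in DI at 0 h, 1270 and 1400 against 124 and 135 at 2 h, 4300 and 4600 against 364 and 402 at 4 h, and 5750 and 5270 against 293 and 437 at 6 h. The difference was −3.37 ± 0.27 (log2) at 2 h and −3.54 ± 0.27 at 4 h (adjusted p = 2.11e-08 and 9.92e-09). Within DI it still rose by 2.42 ± 0.26 between 0 and 6 h (adjusted p = 1.64e-07).

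Batf, a transcription factor of the AP-1 family, reached 73.6 and 68.3 CPM in Ctrl and 8.29 and 12.7 CPM in DI at 4 h (−2.76 ± 0.50, adjusted p = 6.13e-04). At 2 h its difference was −0.86 ± 0.49 (adjusted p = 0.34). Batf was already lower in DI at 0 h (−1.82, not tested), at 0.706 and 1.04 CPM against 3.75 and 2.62 CPM in Ctrl. Hivep2, a zinc finger transcription factor, was lower by −1.25 ± 0.37 at 4 h (adjusted p = 0.0326), a call lost when any 1 of the 4 libraries was left out. Bcl9, a cofactor of beta-catenin, was lower at 2 h (−1.28 ± 0.36, adjusted p = 0.0324) but did not pass at 4 h (−0.88 ± 0.34, adjusted p = 0.11); the 2 h call was likewise lost without any 1 library.

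Of the 5 metabolic genes 4 fell at 4 h. Ppm1k, the mitochondrial phosphatase that switches on breakdown of branched-chain amino acids, was at 140 and 199 CPM in Ctrl and 32.7 and 19.1 CPM in DI (−2.71 ± 0.39, adjusted p = 3.72e-05). Psat1, an enzyme of serine synthesis, was at 36.4 and 29.9 against 8.05 and 4.50 CPM (−2.39 ± 0.51, adjusted p = 0.00288), and was not lower at 2 h (0.25 ± 0.50). AA467197, which encodes a small mitochondrial protein, was at 1520 and 1330 against 554 and 343 CPM (−1.67 ± 0.37, adjusted p = 0.00378). Gpd2, the mitochondrial glycerol phosphate dehydrogenase, was at 581 and 638 against 291 and 324 CPM (−0.99 ± 0.27, adjusted p = 0.0216). In all 4 the arms did not overlap at 4 h. At 0 h Ppm1k, Psat1 and AA467197 were already lower in DI (−1.02, −1.25 and −0.98, not tested), and Gpd2 was not (0.19). Sco1, a copper chaperone of cytochrome oxidase, did not pass at 4 h (−1.03 ± 0.35, adjusted p = 0.0661); its neighbour Adprm on the opposite strand, within 5 kb, rose alongside it in Ctrl from 5.89 to 39.2 CPM of the library.

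Neither lipid transfer gene passed the test for a rise between 0 and 6 h in DI (−0.04 ± 0.40 for Stard7, adjusted p = 0.96, and 0.19 ± 0.55 for Gramd1a, adjusted p = 0.86). Stard7, which carries phosphatidylcholine to mitochondria, went from 8.31 and 9.67 to 116 and 117 CPM in Ctrl between 0 and 6 h, and from 6.89 and 6.56 to 7.80 and 5.09 CPM in DI. Gramd1a, a sterol transfer protein of the endoplasmic reticulum, went from 5.75 and 4.03 to 73.7 and 79.8 CPM in Ctrl and from 5.47 and 6.33 to 8.01 and 5.38 CPM in DI. At 4 h the differences were −3.22 ± 0.40 and −3.60 ± 0.57 (log2; adjusted p = 6.29e-06 and 1.29e-04).

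Transport genes moved differently. Clic5 rose in DI at least as far as in Ctrl: 6.12 and 19.1 CPM at 2 h, 229 and 356 at 4 h and 491 and 843 at 6 h, against 174 and 180 CPM at 4 h and 486 and 471 at 6 h in Ctrl. The 4 h difference of 0.72 ± 0.46 did not pass the test (adjusted p = 0.37). Slco3a1 rose from 41.5 and 25.3 CPM at 2 h to 398 and 372 CPM at 4 h in DI, a step of 3.52 ± 0.30 (log2) beside 3.32 ± 0.30 in Ctrl, from a lower level; its difference at 4 h was −0.94 ± 0.27 (adjusted p = 0.0278, lost without any 1 of the 4 libraries). Lrrc8c, a subunit of the volume-regulated anion channel, was at 56.8 and 51.1 CPM in DI and 61.6 and 70.2 CPM in Ctrl at 4 h (−0.29 ± 0.30, adjusted p = 0.63), and at 99.2 and 114 against 102 and 108 CPM at 6 h.

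**Figure D3:**
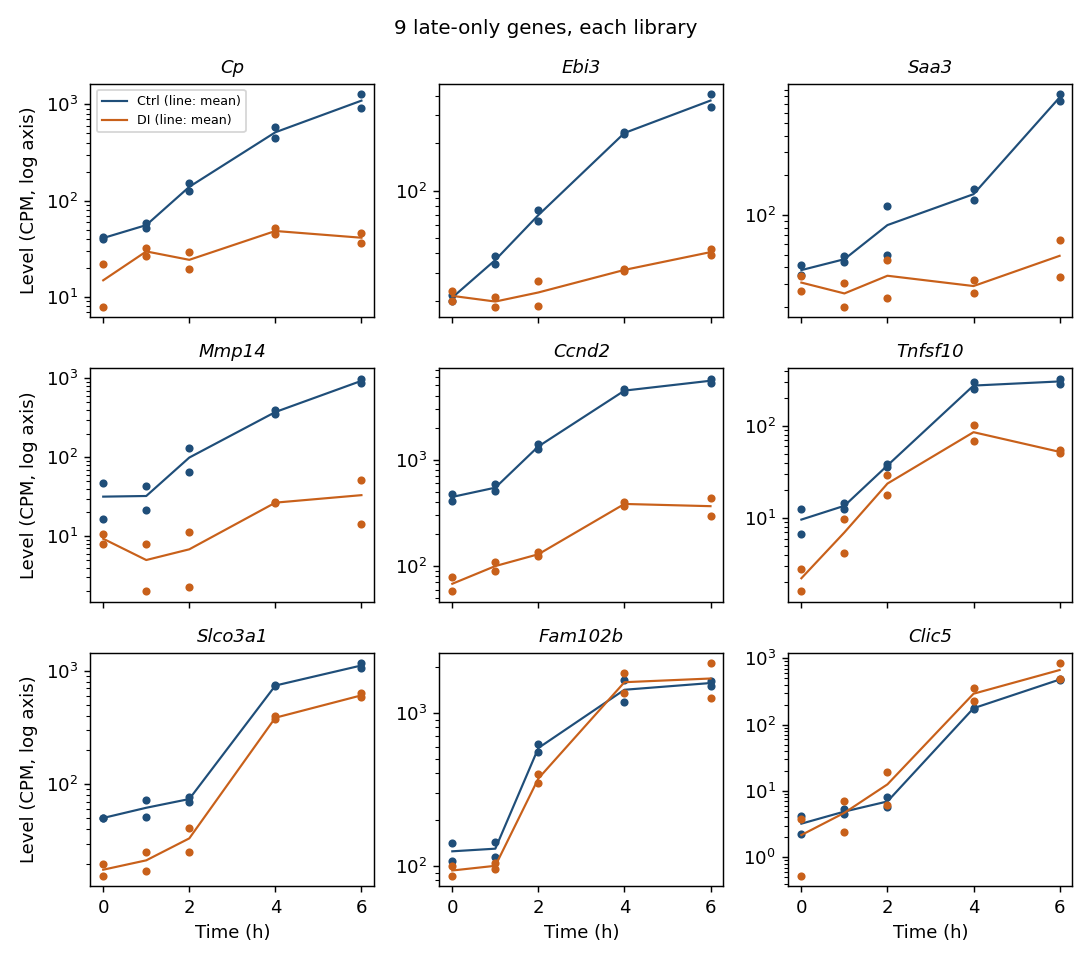
Levels (TMM-scaled CPM, log axis) of 9 late-only genes against time after the stimulus (h), with 1 point per library and lines through the means of 2 libraries in Ctrl (blue) and DI (orange). Cp, Ebi3, Saa3 and Mmp14 stay low in DI, Tnfsf10 and Slco3a1 rise to a lower level, and the arms of Fam102b and Clic5 run close together. Ccnd2, Cp, Mmp14, Tnfsf10 and Slco3a1 are already well below Ctrl at 0 h.

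Among the remaining genes Fam102b, whose function is little known, was the most abundant and lay close in both arms. It stood at 1350 and 1810 CPM in DI and 1170 and 1640 CPM in Ctrl at 4 h (0.16 ± 0.27, adjusted p = 0.78; −0.06 without replicate 1 of Ctrl or replicate 2 of DI). At 6 h it was at 1250 and 2100 against 1490 and 1620 CPM. Dst, a linker of the cytoskeleton, was at 378 and 483 CPM in DI and 456 and 430 CPM in Ctrl at 4 h (−0.04 ± 0.42, adjusted p = 0.97), and at 123 and 240 against 744 and 440 CPM at 6 h. Rnf217, a ubiquitin ligase, was at 13.4 and 38.6 CPM in DI before the stimulus and 31.4 and 21.2 CPM at 6 h, against 9.35 and 4.93 and then 83.3 and 144 CPM in Ctrl. At 4 h its arms overlapped (0.17 ± 0.46, adjusted p = 0.87; −0.31 without replicate 2 of DI). The 3 members of this group that fell at 4 h were Glipr2 (−2.34, and −2.73 at 0 h), the palmitoyltransferase gene Zdhhc2 (−1.73), which overlaps Cnot7 on the opposite strand, and the scaffold gene Gphn (−1.43).

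Across the times, the DI level as a share of the Ctrl level was 67.2% at 0 h in the median member, 67.4% at 1 h, 48.1% by 2 h, 45% by 4 h and 29.9% by 6 h. The values at 0, 1 and 6 h use the Ctrl libraries that chose the genes, so they are given with no test. At 6 h 43 members had both DI libraries below both Ctrl libraries, beside 29.7% of all genes, and 2 had both above, beside 23.7%. At 0 h these counts were 26 and 4, beside 26.7% and 19.8%, and at 1 h 22 and 4, beside 25.3% and 22.9%. The 4 members with a DI mean above Ctrl at 6 h were Clic5, Fam102b, Lrrc8c and Src. At 0 h 16 members had a DI mean above Ctrl.

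Whether DI changed the step from 2 to 4 h was tested directly as the rise in DI minus the rise in Ctrl. By edgeR 0 of 47 passed in either direction, against 0.0656% of all genes lower and 0.0750% higher, and the lowest adjusted p of a member was 0.12. At an unadjusted p under 0.05 there were 12 members. The share of all genes at that threshold is not given here, so this count is no evidence of a changed step. Among them Psat1 (−2.64), Gphn (−1.98), Batf (−1.89), Dram1 (−1.74), Ppm1k (−1.62), Cd200 (−1.32), AA467197 (−1.25), Ebi3 (−1.25), Itgal (−0.97) and Gpr31b had a smaller step in DI, and Fam102b (0.82) a larger one. With the DESeq2 Wald test 2 members had a smaller step, beside 48 lower and 55 higher of all 10663 genes. With no filter on low counts 3 had a smaller and 1 a larger step, beside 48 lower and 107 higher of 14883 genes.

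The DI libraries on their own played no part in the choice. Within DI 41 of the 47 genes were higher at 6 h than at 0 h and 0 lower, against 11.2% of all genes that were higher and 8.91% that were lower, with a median rise of 3.07 (log2). Genes induced in DI alone could not be among the 47. The members were chosen for a rise after the same stimulus in Ctrl, and the shares of all genes do not allow for that. Of the 63 early genes 60 were higher in DI at 6 h (median 4.59), and of the 84 in between 79 were (median 3.44). The 6 members that did not pass were Saa3, Itgal, Stard7, Gramd1a, Sco1 (0.97 ± 0.36, adjusted p = 0.0632) and Rnf217 (0.01 ± 0.46). The rise in DI ranged up to 8.14 ± 0.65 for Clic5 (adjusted p = 9.19e-10), followed by 7.12 ± 0.54 for Tmem67 (adjusted p = 3.16e-10), which had 1 and 2 reads at 0 h, and 5.42 ± 0.49 for Src (adjusted p = 7.46e-09). Among the 41 were Ebi3 (0.92 ± 0.28, adjusted p = 0.0196) and Mmp14 (1.86 ± 0.61, adjusted p = 0.0335); both lost the call without replicate 1 or 2 of DI at 0 h or replicate 1 at 6 h.

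At 1 h 2 of the 47 were higher than at 0 h in DI and 0 lower, against 3.29% of all genes that were higher and 0.300% that were lower. Tmem67, a protein of the ciliary transition zone, had 1 and 2 reads in DI at 0 h and 42 and 48 at 1 h, a ratio of 35.4 with a 95% counting interval of 11.7 to 175. In Ctrl it was at 7.59 and 6.85 CPM at 0 h already. Tmem67 overlaps Rbm12b2 on the opposite strand. Tnfsf10 rose by 1.72 ± 0.45 (adjusted p = 0.0289) from 2.83 and 1.61 to 4.22 and 9.76 CPM, and lost the call without replicate 2 of DI at 0 h or at 1 h.

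Between 2 and 4 h 21 of the 47 rose in DI and 0 fell, against 3.15% of all genes that rose and 2.64% that fell, among them Clic5 (4.55 ± 0.55, adjusted p = 1.32e-05) and Slco3a1 (3.52 ± 0.30, adjusted p = 1.09e-07). The count was 13 without replicate 1 of DI at 2 h, 13 without replicate 2 at 4 h and 10 without replicate 2 at 2, 4 and 6 h together. As a share of the 6 h level of its own arm, the median member in DI stood at 43.3% at 2 h and 90.8% at 4 h, beside 19.3% and 65.5% in Ctrl. In DI 21 of 47 were at or above their 6 h level by 4 h and in Ctrl 5 were. The Ctrl 6 h libraries were used to choose the genes, so this contrast carries no test. The shares also include the level at 0 h, so genes that hardly rose in DI score high. Rnf217 stood at 94.5% and Saa3 at 70.6% at 2 h in DI.

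The same criteria applied to the DI libraries gave 29 genes, of which 9 were among the 47 (31.0% of the DI genes and 19.1% of the 47): Dram1, Parp8, Jak2, Slco3a1, Gpd2, Gnb4, Adgrg6, Fam102b and Lrrc8c. Of the 47 genes, 25 met the level of 40 CPM at 6 h in DI, 24 the 6-fold rise, and 34 the limit at 1 h. Dram1, a membrane protein linked to autophagy, stood at 198 and 130 CPM in DI and 389 and 215 CPM in Ctrl at 4 h (−0.88 ± 0.38, adjusted p = 0.16).

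The late-only genes were long, and the shorter among them were lower in DI more often. Their median span in the genome (GENCODE M21, GRCm38) was 50.7 kb, against 24.5 kb for all genes tested, 12.8 kb for the 63 early genes and 19.8 kb for the 84 genes in between. The span of the 24 members lower in DI at 4 h had a median of 27.9 kb, and that of the 23 others 91.6 kb. Under 50 kb 17 of 23 members were lower at 4 h, with a median difference of −2.32 (log2), and from 50 kb up 7 of 24, with a median of −0.88. Gpr31b (1.28 kb), Saa3 (3.70 kb), Ebi3 (4.38 kb) and Mmp14 (13.8 kb) are among the short genes, and Clic5 (91.6 kb) and Fam102b (56.6 kb) among the long ones, while Cp (52.1 kb) and Slco3a1 (279 kb) are long genes that were lower.

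Across the 47 genes, Spearman's rho between span and the 4 h difference was 0.54, against 0.13 for the 63 early genes, 0.29 for the 84 in between and 0.05 for 10643 genes tested. At 2 h it was 0.28 for the members, 0.07 for the early genes, 0.33 for those in between and −0.08 for all. Span was examined after the values were seen, the 50 kb limit lies near the members' own median, and 40 such relations were computed, so these are descriptions with no test. Genes are not independent replicates, and all the values share the same 4 libraries at 4 h. In the early genes the share lower in DI at 4 h was 31 of 61 under 50 kb and 2 of 2 above, and over all genes 6.19% and 5.48%. In the genes in between it was 34 of 65 and 9 of 19. At 2 h it was 34 of 65 and 4 of 19 in the genes in between, beside 10 of 23 and 6 of 24 in the members.

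**Figure D4:**
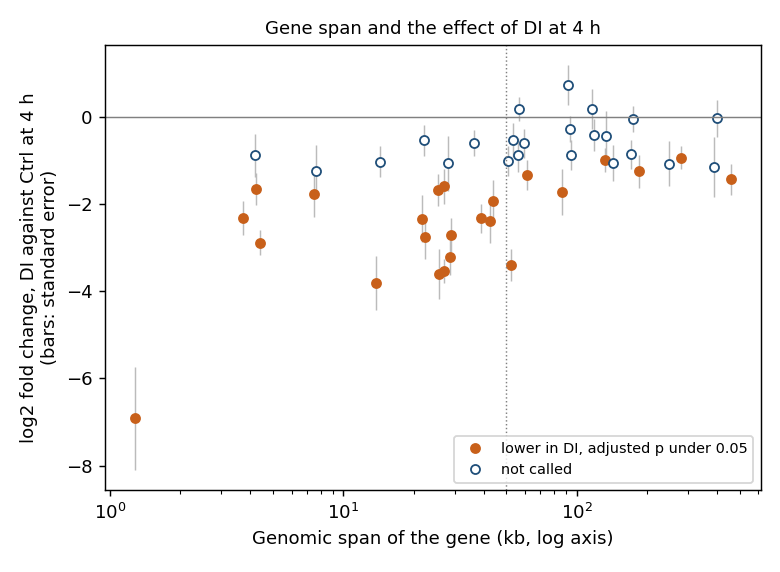
Log2 fold change of DI against Ctrl at 4 h (y axis, bars of 1 standard error) against the genomic span of each of the 47 late-only genes (kb, log axis), with filled points for genes called lower and open points for the others. Of the genes under 50 kb (dotted line) 17 of 23 were lower, and of those at 50 kb or more 7 of 24.

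Members were looked up in lists of genes by function, with the families that the rule left out set aside. With 47 members among 10663 genes tested, lists of this size would hold few members by size alone. The numbers of members in them are therefore a description. Over all genes tested 6.00% were lower and 3.43% higher in DI at 4 h. Tnfsf10 is the 1 member among 70 tested type I interferon-stimulated genes outside those families, of which 20 were lower and 0 higher in DI at 4 h. Jak2 is the 1 member among 37 IFNg-induced genes, of which 13 were lower and 0 higher. Ebi3, Fpr1, Gpr31b and Tnfsf10 are among 43 cytokine, growth factor and receptor genes, of which 21 were lower and 2 higher. Of 29 protease, inhibitor and adhesion genes, which hold Itgal and Mmp14, 11 were lower and 5 higher, and of 30 acute-phase, antimicrobial and complement genes, which hold Cp and Saa3, 5 were lower and 1 higher. No late-only gene is among 36 NRF2 targets, of which 25 were higher and 0 lower.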

How the data were processed

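RNA was measured in 20 libraries, made per the labels' protocols by priming polyadenylated RNA with barcoded oligo-dT, pooled by Actb, and amplified by PCR into strand-specific libraries that read transcript 3' ends. No molecular identifiers are named, so reads are not independent molecules and intervals cover counting error only. The authors deposited raw counts per Ensembl gene. STAR, HTSeq, DESeq2 and mm10 are named per the submitters' processing notes, without versions or options. Of 22165 gene IDs 21745 matched a symbol.

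The members and all gene lists were chosen with earlier results of these data known. Genes were filtered with filterByExpr by group, which left 10663, and scaled with TMM. One edgeR 4.0.16 quasi-likelihood model (R 4.3.3, limma 3.58.1) gave each group a coefficient over the 20 libraries, and p-values were adjusted by Benjamini-Hochberg over all genes tested, called under 0.05. The standard error is the log2 fold change over the root of F. Tests of DI against Ctrl were kept to 2 and 4 h, whose libraries the membership rule did not use. The tests within DI at 0, 1 and 6 h use libraries outside the rule too.

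Named genes are the 10 largest falls among called members whose libraries do not overlap at 4 h, the 6 smallest differences not called with a standard error under 0.5, up to 3 members of each list, and those near a threshold. Others were named after their values were seen, and 1 member is counted but not reported by name here. Alternatives were DESeq2 1.42.0 size factors and Wald test, other filters, limma-voom with and without quality weights, TMM from abundant genes, estimated molecules, only the groups compared, a replicate block, and fits with libraries left out. Tested on simulated data for DI against Ctrl at 4 h (10518 genes), the fit recovered 87% of 100 genes changed by 2 and 19% of 100 changed by 1 on the log2 scale, with 4 false calls. The simulation gave both arms the same spread per gene and changed no genes of low level. It therefore does not cover the wider spread of the DI libraries.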

Additional observations from a re-analysis of the deposited data

How the results depend on the processing

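No called member changed sign under any of the 15 alternatives to a comparison. With 2 libraries a group, changes near 1 on the log2 scale were mostly missed in simulated counts, so a member not called is not shown to be unaffected, and DI levels rest on fewer molecules than Ctrl levels. The number of members called lower in DI was 14 to 18 of 47 at 4 h and 9 to 16 at 2 h when 1 library was left out, against 24 and 16. The number higher at 4 h than at 2 h was 15 to 20 in Ctrl and 13 to 17 in DI, against 32 and 21. In Ctrl the number higher at 4 h than at 2 h was 43 with limma-voom and quality weights and 41 with the compared groups alone, against 32. Limma-voom with quality weights gave 10 lower at 2 h and 10 higher in DI between 2 and 4 h. Fitting the compared groups alone gave 9 and 10, and leaving out replicate 2 of DI at 2, 4 and 6 h gave 10 for the latter. For DI at 6 h against 0 h, limma-voom with quality weights gave 33 higher and the compared groups alone 32, against 41. For DI at 1 h against 0 h, limma-voom with or without weights, TMM from genes of at least 32 CPM, estimated molecules and the compared groups alone each gave 1, against 2. For the rise from 2 to 4 h, DI minus Ctrl, the DESeq2 Wald test gave 2 and no filter on low counts 3, against 0. The cause of these differences was not tested, except that fits without a library hold fewer samples. Deviations of same-numbered libraries from their group means were little correlated over genes (−0.143 to 0.113 over 45 pairs of groups). Such correlations do not settle whether replicate numbers pair the libraries. In DI, replicate 2 had more reads per molecule than replicate 1 at every time, with 5.65 against 3.58 at 0 h and 10.2 against 6.51 at 4 h. With the replicate block 24 members were lower at 4 h, 14 at 2 h, 32 and 20 rose from 2 to 4 h in Ctrl and DI, 41 rose in DI by 6 h, 2 by 1 h, and 0 differed in the step. Of 315 values of named genes under alternatives, 295 kept direction and call, 9 lost the call and 11 changed sign, all in genes not called. At 4 h Dst was at 0.063 with TMM from abundant genes, 0.038 with the compared groups alone and −0.235 to 0.119 with 1 library left out. Dgkh was at 0.040, 0.014 and −0.180 to 0.049 under the same settings. Fam102b was at −0.064 without replicate 2 of DI at 3 times and −0.065 to 0.422 with 1 library left out. Rnf217 was at −0.310 and −0.311 to 0.526 under these.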

Other observations

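The criteria applied to DI named 20 genes that are not among the 47. Values here are CPM of the library, and these genes were picked after their values were seen, so no test is given. Procr, the endothelial protein C receptor, was at 168 and 93.8 CPM in DI before the stimulus and at 1009 and 788 CPM at 6 h, against 7.61 and 5.82 and then 349 and 491 CPM in Ctrl. Asf1a, a histone chaperone, went from 10.2 and 12.3 to 84.4 and 74.1 CPM in DI and from 10.2 and 7.89 to 9.85 and 12.1 CPM in Ctrl. Ccne1, which encodes cyclin E, went from 6.54 and 2.97 to 49.9 and 77.1 CPM in DI and from 4.47 and 2.35 to 29.0 and 15.0 CPM in Ctrl, so this cyclin stood higher in DI at 6 h where Ccnd2 stood lower. Lipg, endothelial lipase, was on the DI list too, at 38.1 and 59.8 CPM at 6 h, although Ctrl then held 950 and 714 CPM.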
